A study of Mus musculus with 8 samples.

Results

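The genes described here are 10 mouse genes that report on, or restrain, signalling through RAS and the kinase ERK: the phosphatases Dusp4, Dusp5 and Dusp6, the inhibitors Spry1, Spry2, Spry4 and Spred1, the transcription factors Etv4 and Etv5, and the output gene Phlda1. They were taken by symbol, and 10 of 10 were found among the 15047 genes of the deposited expression values. RNA-Seq was done on pancreas of 8 male mice: 3 C57BL/6 WT mice on a low-fat diet (LFD), 3 C57BL/6 WT mice on a high-fat diet (HFD) in which fat supplied 60% of the calories, and 2 C57BL/6J; ob/ob mice, which lack leptin and ate standard chow. Mice entered the groups at 4 weeks of age, and LFD and HFD were given for 10 weeks. By the study's own text, which the labels do not repeat, all these pancreata carried a transplant of mT organoids, neoplastic cultures grown from the pancreas of tumour-prone mice with Pdx1-Cre. Host tissue and graft were sequenced together. By design, HFD and LFD mice differed in diet alone, whereas ob/ob mice differed from LFD mice in both genotype and chow, which cannot be told apart. The study also reports that mT grafts engrafted more often, grew more and progressed further in obese than in lean mice. The share and stage of graft in each library are not known here, so they cannot be told apart from the effect of diet or genotype.

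RAS passes a signal from growth factor receptors through the kinases RAF, MEK and ERK. ERK then switches on genes whose products turn the same signal down again, among them dual-specificity phosphatases and Sprouty and Spred proteins, as well as ETS transcription factors that carry its output. These transcripts are therefore widely used as readouts of the pathway in pancreatic tumours.

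Promoters of 3 genes are shown because 2 of them, Dusp5 and Dusp6, were high in the same obese mice, whereas Spry1 was not. They are given 5′ to 3′ on the plus strand of GRCm38.p6 from the RefSeq promoter sequences and stop before the first annotated transcript start. They lie at chr19:53528895-53529108, chr10:99262981-99263230 and chr3:37639697-37639946, in that order. Capitals mark the matches to the serum response factor CArG box, a sequence through which growth factor signals reach many early genes.
Dusp5: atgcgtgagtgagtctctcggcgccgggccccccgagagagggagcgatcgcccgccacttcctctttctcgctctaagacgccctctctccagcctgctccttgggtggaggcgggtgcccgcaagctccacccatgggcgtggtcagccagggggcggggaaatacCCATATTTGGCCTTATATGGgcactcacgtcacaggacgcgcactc
Dusp6: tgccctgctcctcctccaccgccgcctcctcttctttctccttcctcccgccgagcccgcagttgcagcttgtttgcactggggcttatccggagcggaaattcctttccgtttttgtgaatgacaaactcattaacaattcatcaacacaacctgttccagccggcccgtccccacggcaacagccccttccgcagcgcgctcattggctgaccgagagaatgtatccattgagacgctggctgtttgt
Spry1: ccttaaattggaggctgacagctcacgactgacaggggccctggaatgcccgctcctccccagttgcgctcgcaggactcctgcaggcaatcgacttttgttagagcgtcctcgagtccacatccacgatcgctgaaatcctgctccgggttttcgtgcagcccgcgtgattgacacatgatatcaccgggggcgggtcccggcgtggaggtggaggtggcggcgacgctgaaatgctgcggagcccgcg

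RefSeq promoter windows of 300 bases, from 250 bases before to 50 after the start, were available for 6 of the 10 genes in 7 windows (Dusp5, Dusp6, Spry1, Spry2, Spred1 and Etv5). Both strands were searched. The CArG box was in 1.63% of 32851 mouse windows, and among these genes only in that of Dusp5, where 2 boxes lay side by side at bases -82 to -73 and -72 to -63. These positions are counted from the RefSeq start, which for Dusp5 lies downstream of the first annotated start where the printed sequence ends, so the boxes are closer to the end of the printed sequence. The ETS motif CCGGAA, in 14.9% of windows, was matched in Spry2 at bases 33 to 38. The motif GGGCGG was in 35.7% of windows and in those of Dusp5, Etv5, Spred1 and Spry1. The AP-1 motif TGANTCA (7.81% of windows) and the cyclic AMP response motif TGACGTCA (1.79%) had no match in these windows. A match describes the letters only.

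All values below are regularized log2 (rlog) values, a log2 scale corrected for library size, and a difference of 1 is a doubling. These values are not divided by gene length, so levels were compared between mice and not between genes. The middle value of a mouse over all genes lay between 7.09 and 7.25. The depth of each library is unknown, so that no counting error can be given. The pancreas label was checked with 26 genes of acinar cells, the cells that make digestive enzymes. All 26 were measured, and their mean rlog value was 16.85, 17.03 and 17.27 in the LFD mice. It was 17.15, 15.11 and 13.21 in HFD replicates 1, 2 and 3, and 16.48 and 13.52 in ob/ob replicates 1 and 2. HFD replicate 1 thus lay inside the LFD range, and 3 obese mice lay below the other 5, with a gap from 15.11 to 16.48. Those 3 were themselves spread, with a wider gap from 13.52 to 15.11. Results of HFD are therefore also given without HFD replicate 1. That mouse was singled out by its acinar mean, which moved with most of the 10 genes, so values without it are a description of the other mice and not independent evidence.

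Dusp4, Dusp5 and Dusp6 remove the activating phosphates from ERK, the former pair in the nucleus and Dusp6 in the cytoplasm. The rlog value of Dusp4 (chromosome 8, 34807297 to 34819894, plus strand) was 5.80, 6.12 and 5.10 in the LFD mice, 5.65, 7.95 and 7.76 in the HFD mice, and 6.20 and 7.86 in the ob/ob mice. HFD replicates 2 and 3 and ob/ob replicate 2 were high, HFD replicate 1 lay within the LFD range, and both ob/ob mice lay above it. Dusp5 (chromosome 19, 53529109 to 53542431, plus strand) had values of 5.47, 5.80 and 5.32 in LFD, 5.40, 7.61 and 8.29 in HFD, and 6.25 and 7.21 in ob/ob mice. Its order over the mice was nearly that of Dusp4, with HFD replicate 3 highest. Dusp6 (chromosome 10, 99263231 to 99267489, plus strand), the member most often used as an ERK readout, had values of 8.0, 8.45 and 8.01 in LFD, 7.87, 9.74 and 9.54 in HFD, and 8.62 and 9.76 in ob/ob mice. Here HFD replicate 1 was the lowest of all 8 mice, while both ob/ob mice again lay above the LFD range.

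The means of the phosphatases differed most for Dusp5 in HFD, at 7.10 ± 1.51 (SD, n = 3) against 5.53 ± 0.25 (SD, n = 3) in LFD. This was a difference of 1.57 (2.97-fold on the rlog scale, SE 0.66), with a limma p of 0.0426 before and 0.242 after adjustment over all genes. For Dusp4 the difference was 1.45 (SE 0.66, limma adjusted p = 0.265), and for Dusp6 it was 0.90 (SE 0.49, limma adjusted p = 0.329). The SD within HFD was larger than that within LFD for all 3 phosphatases, since HFD replicate 1 lay 2.20, 2.56 and 1.77 below the mean of the other 2 HFD mice for Dusp4, Dusp5 and Dusp6. Without that mouse the differences were 2.18, 2.42 and 1.49 (limma adjusted p = 0.0247, 0.0137 and 0.0228), in a fit where 18.7% of all genes passed. In ob/ob against LFD the differences were 1.36, 1.20 and 1.04 for Dusp4, Dusp5 and Dusp6, with limma adjusted p of 0.328, 0.375 and 0.323. The obesity models were not told apart, the differences of ob/ob against HFD being -0.09, -0.37 and 0.14 with 95% intervals that reached from -1.77 to 1.59 for Dusp4, from -2.05 to 1.31 for Dusp5 and from -1.11 to 1.39 for Dusp6.

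**Figure D1:**
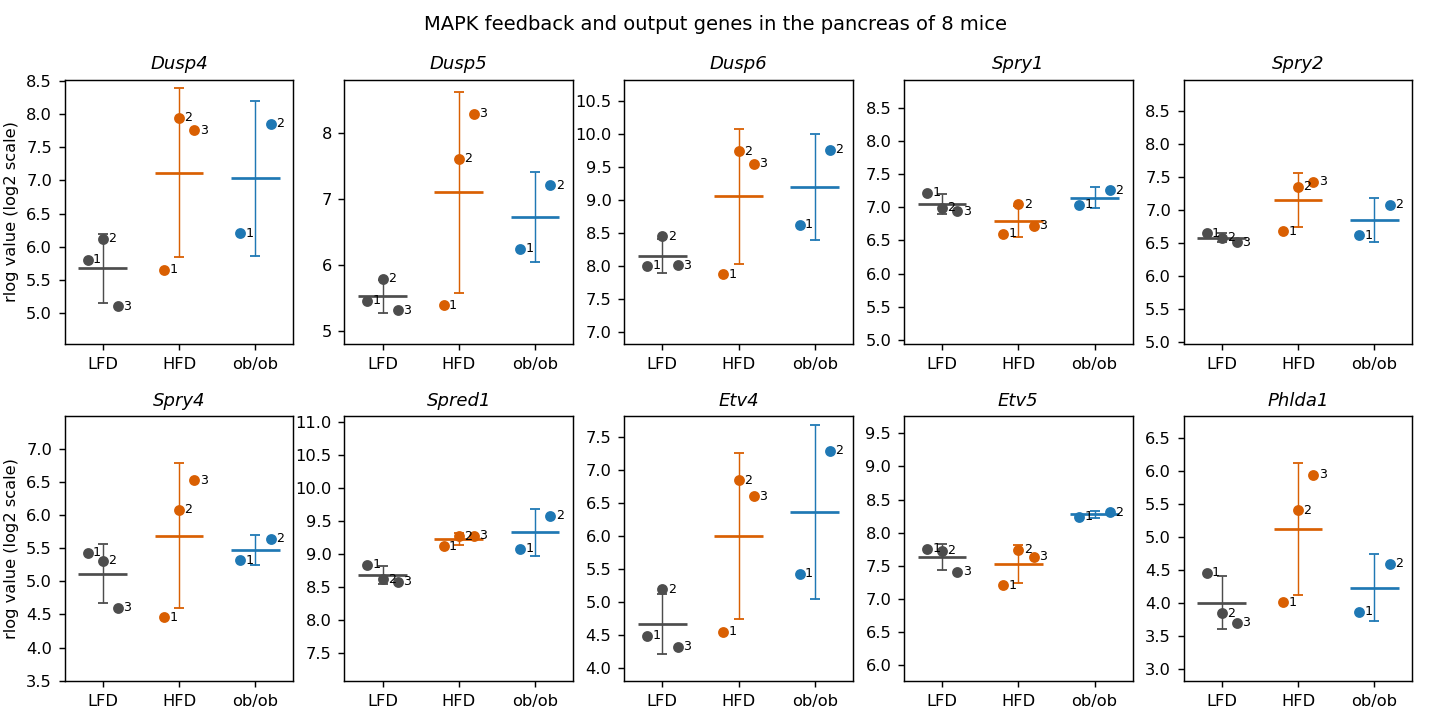
rlog value (log2 scale) of each of the 10 genes in each mouse, with LFD in grey, HFD in orange and ob/ob in blue, numbered by replicate. Horizontal bars are group means and error bars 1 SD (n = 3, 3 and 2). In 8 genes HFD replicates 2 and 3 and ob/ob replicate 2 hold the 3 highest values, and the exceptions are Spry1 and Etv5.

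Sprouty and Spred proteins block the path from receptor to RAF. Spry1 (chromosome 3, 37639947 to 37644598, plus strand) had the narrowest range of the 10 genes, with values of 7.23, 6.99 and 6.94 in LFD, 6.60, 7.05 and 6.72 in HFD, and 7.04 and 7.26 in ob/ob mice. Its differences were -0.26 in HFD (95% interval -0.74 to 0.22) and 0.10 in ob/ob (95% interval -0.44 to 0.63), and the groups overlapped. Spry2 (chromosome 14, 105891947 to 105896819, minus strand) had values of 6.65, 6.58 and 6.51 in LFD, 6.68, 7.35 and 7.43 in HFD, and 6.61 and 7.08 in ob/ob mice. All HFD mice lay above all LFD mice, HFD replicate 1 by a small margin, and ob/ob replicate 1 lay within the LFD range. Spry2 was 0.57 higher in HFD (SE 0.26, limma adjusted p = 0.262) and 0.27 higher in ob/ob mice (SE 0.29, limma adjusted p = 0.608). Spry4 (chromosome 18, 38586247 to 38601415, minus strand) was spread more widely in the lean mice, with values of 5.44, 5.31 and 4.61 in LFD, 4.46, 6.09 and 6.53 in HFD, and 5.32 and 5.64 in ob/ob mice. Its differences from LFD were 0.58 (SE 0.52) and 0.36 (SE 0.58), and both groups overlapped LFD.

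Spred1, which holds back RAF activation by RAS together with neurofibromin, was the 1 gene of the 10 with no overlap between lean and obese mice, which 18.4% of all genes also showed. Spred1 (chromosome 2, 117121374 to 117182279, plus strand) had values of 8.84, 8.62 and 8.58 in LFD, 9.12, 9.27 and 9.28 in HFD, and 9.08 and 9.58 in ob/ob mice. All 5 obese mice lay above all 3 LFD mice, HFD replicate 1 included. The difference from LFD was 0.54 in HFD (1.46-fold, SE 0.18, limma adjusted p = 0.195) and 0.65 in ob/ob mice (1.57-fold, SE 0.20, limma adjusted p = 0.205). For the mean of both obesity models it was 0.59 (SE 0.16, limma adjusted p = 0.11), and a two-sided exact permutation test of the 5 obese against the 3 LFD mice gave p = 0.0357, the smallest that 56 splits allow and one that 18.4% of all genes reached. Spred1 was the only one of the 10 genes with that value in the exact permutation test. Spry2 and Etv4 came next in that exact test, each with p = 0.0714.

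Etv4 and Etv5 are ETS transcription factors of the PEA3 group that are made and activated downstream of ERK. Etv4 (chromosome 11, 101769742 to 101785371, minus strand) had values of 4.49, 5.19 and 4.32 in LFD, 4.55, 6.84 and 6.60 in HFD, and 5.43 and 7.29 in ob/ob mice. The same 3 obese mice as for the phosphatases were high, HFD replicate 1 lay within the LFD range, and both ob/ob mice lay above it. Etv4 had the largest ob/ob difference of the 10 genes, 1.69 (3.23-fold, SE 0.76, limma adjusted p = 0.270), and was 1.33 higher in HFD (SE 0.68, limma adjusted p = 0.300).

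Etv5 (chromosome 16, 22381309 to 22439719, minus strand) followed another order, with values of 7.76, 7.73 and 7.41 in LFD, 7.20, 7.74 and 7.63 in HFD, and 8.24 and 8.31 in ob/ob mice. Both ob/ob mice were above all 6 other mice and differed from each other by 0.07, while HFD and LFD overlapped. Etv5 was 0.64 higher in ob/ob than in LFD mice (SE 0.23, limma adjusted p = 0.224) and 0.75 higher than in HFD mice (1.68-fold, SE 0.23). The limma p of the latter was under 0.05 before adjustment and close to 1 after it, and HFD differed from LFD by -0.10 (95% interval -0.57 to 0.36). With 2 ob/ob mice the exact test cannot go below 0.2. Islet cells are another source of RNA in bulk pancreas. The mean rlog value of a list of 10 islet genes was 10.48 and 9.53 in the ob/ob mice, against 8.70 to 9.71 in LFD and 8.34 to 8.90 in HFD mice. By that mean only ob/ob replicate 1 lay above the LFD range. By gene, 7 of the 10 islet genes were above all LFD mice in both ob/ob mice and 0 below, where 24.1% of all genes were above. Likewise 7 of the 10 were above all HFD mice and 0 below, where 7.92% of all genes were above. The part of islet cells in the Etv5 values was not tested.

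Phlda1 encodes a pleckstrin homology domain protein induced by growth factors. Phlda1 (chromosome 10, 111506286 to 111508645, plus strand) had values of 4.46, 3.84 and 3.70 in LFD, 4.01, 5.40 and 5.94 in HFD, and 3.87 and 4.59 in ob/ob mice. HFD replicates 2 and 3 were high, and ob/ob replicate 2 lay just above the highest LFD mouse. The difference from LFD was 1.11 in HFD (SE 0.50, limma adjusted p = 0.260) and 0.23 in ob/ob mice (SE 0.56, limma adjusted p = 0.836), the latter turning to -0.021 under quantile normalization. The difference of ob/ob against HFD was -0.89 (SE 0.56), with a 95% interval from -2.16 to 0.39.

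Counted together, 8 of the 10 genes had a higher mean in HFD than in LFD mice, as did 52.4% of all genes, and 2, Dusp5 and Spred1, had an unadjusted limma p under 0.05, as did 19.8% of all genes. The groups did not overlap for 2 genes, Spry2 and Spred1, both higher in HFD, beside 25.2% of all genes in either direction and 12.9% higher. In ob/ob mice, 10 of 10 genes had a higher mean than in LFD (53.1% of all genes), with 2, Spred1 and Etv5, at an unadjusted limma p under 0.05 (18.8%). In that comparison 6 of the 10 lay above all LFD mice (Dusp4, Dusp5, Dusp6, Spred1, Etv4 and Etv5), where 24.1% of all genes did so and 45.9% did not overlap in either direction. The median difference of the 10 genes was 0.74 in HFD and 0.64 in ob/ob mice, beside 0.03 and 0.04 over all genes. Both comparisons use the same 3 LFD mice and are not independent.

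Of the 10 genes, 5 had a higher and 5 a lower mean in ob/ob than in HFD mice, with a median difference of 0.01, and 51.7% of all genes had a higher mean. Only Etv5 had an unadjusted limma p under 0.05 (3.91% of all genes) or no overlap (13.3% of all genes, 7.92% with ob/ob higher). For the mean of both obesity models against LFD, 9 of 10 genes were higher (53.5% of all genes) and 4, Dusp4, Dusp5, Spred1 and Etv4, had an unadjusted limma p under 0.05 (25.4%). Spred1 alone had no overlap between the 5 obese and the 3 LFD mice (18.4% of all genes, 9.4% higher). No member, and 0% of all genes, passed an adjusted limma p of 0.05 in any of the 4 comparisons. Without HFD replicate 1, 7 of the 10 passed it for HFD against LFD (Dusp4, Dusp5, Dusp6, Spry2, Spry4, Etv4 and Phlda1), all higher, with a median difference of 1.34, and so did 18.7% of all genes, 10.8% being higher. In that limma fit, which has 1 mouse fewer, the difference was 0.81 for Spry2 (adjusted p = 0.0427), 1.19 for Spry4 (adjusted p = 0.0444), 2.05 for Etv4 (adjusted p = 0.0341) and 1.67 for Phlda1 (adjusted p = 0.0255), whereas Spred1, at 0.59, had an adjusted p of 0.0673. For the mean of both models, 5 members passed without that mouse (Dusp4, Dusp5, Dusp6, Spred1 and Etv4), all higher, beside 22.1% of all genes, with 12.8% higher. With limma's array weights, which weight each mouse by its residuals, 8 members passed for HFD against LFD, all higher, and 5 for the mean of both models, beside 44.2% and 28.5% of all genes, with 24.7% and 16% higher.

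**Figure D2:**
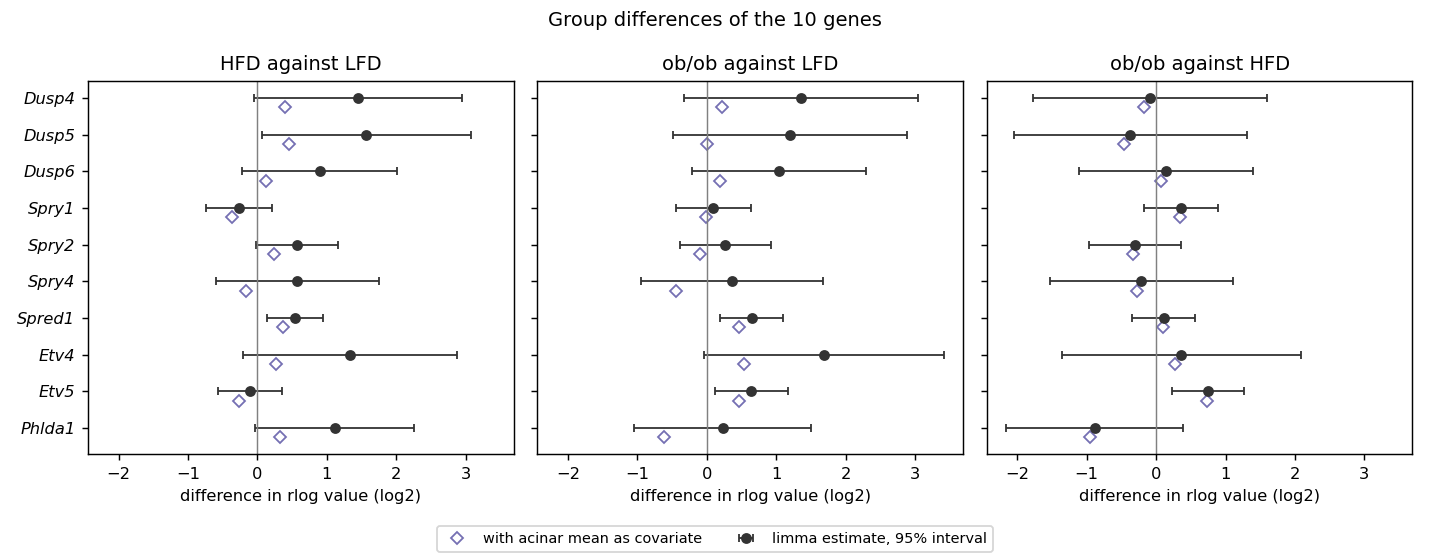
Differences in rlog value (log2) of the 10 genes in 3 comparisons. Filled points are limma estimates with 95% intervals, the vertical line marks 0, and open diamonds are estimates with the acinar mean as a covariate. In HFD against LFD the intervals of Dusp5 and Spred1 lie above 0, in ob/ob against LFD those of Spred1 and Etv5, and in ob/ob against HFD that of Etv5.

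By mouse, the 10 genes gave a graded picture among the obese animals. In HFD replicate 1, 2 genes lay above the LFD range (Spry2 and Spred1), 4 within it and 4 below it (Dusp6, Spry1, Spry4 and Etv5), while 26.4% of all genes lay above it and 27.8% below it. In HFD replicates 2 and 3, 8 genes each lay above it, and these were the same genes, beside 38.2% and 39.7% of all genes. Spry1 lay below the LFD range in HFD replicate 3, as did 36.2% of all genes. In ob/ob replicate 1, 6 of 10 lay above the LFD range (31.2% of all genes), and in ob/ob replicate 2 all 10 did (41.2% of all genes). ob/ob replicate 2 exceeded replicate 1 by 1.65 for Dusp4, 1.14 for Dusp6 and 1.86 for Etv4.

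Dusp4, Dusp5 and Etv4 were among the tenth of all genes with the largest SD over the 8 mice, at percentiles 96.4, 96.6 and 97.0. Spry1 was at percentile 18.6, and Spred1 at 42.9.

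The acinar level of a mouse moved with most of these genes. HFD replicate 3, ob/ob replicate 2 and HFD replicate 2 had the lowest acinar means and also held the 3 highest values of 8 of the 10 genes, as they did for 17.4% of all genes. These 3 mice lay below the other 5 and were themselves spread, and neither set holds 6 mice. No coefficient of correlation with the acinar mean is therefore printed, and only the counts of genes that passed are given. By an exact permutation of the pairing over all 8 mice, 6 members (Dusp4, Dusp5, Dusp6, Spry2, Spred1 and Etv4) had an adjusted p under 0.05 with it, as did 27.4% of all genes. That count leans on the 3 mice with the lowest acinar means and was not tested within a group. This was the count for Pearson's r. By Spearman's rho 3 members passed (Dusp4, Dusp5 and Spry4), beside 17.5% of all genes. In bulk tissue, fewer cells of a type and less RNA per cell cannot be told apart. With the acinar mean as a covariate in limma, the median difference of the 10 genes fell from 0.74 to 0.25 in HFD and from 0.64 to 0.10 in ob/ob mice. The difference in HFD was 0.40 for Dusp4, 0.46 for Dusp5, 0.12 for Dusp6 and 0.26 for Etv4, with no unadjusted limma p under 0.05 among the 10. Spred1 was then 0.37 higher in HFD (SE 0.17) and 0.46 higher in ob/ob mice (SE 0.19), and Etv5 was 0.73 higher in ob/ob than in HFD mice (SE 0.20), none of which passed after adjustment.

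**Figure D3:**
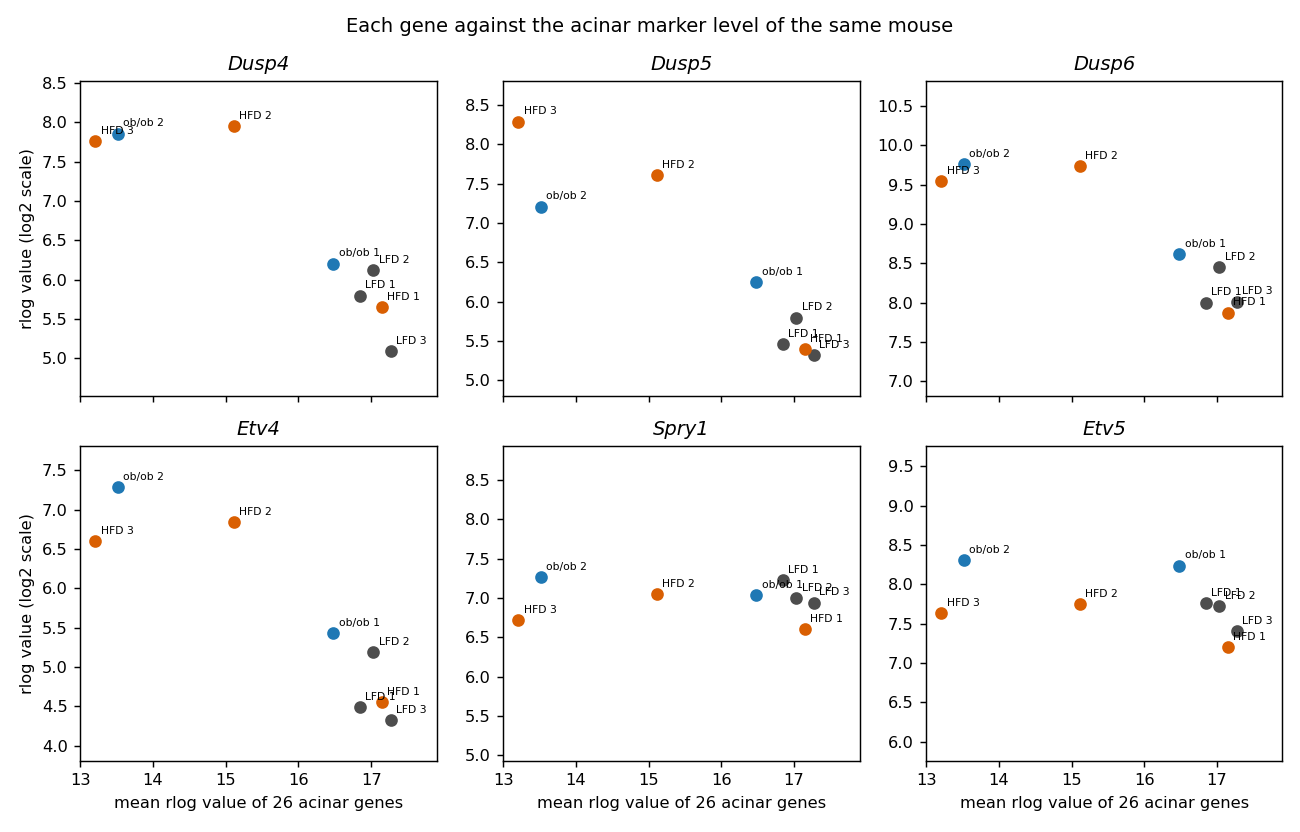
rlog value (log2 scale) of 6 genes against the mean rlog value of 26 acinar genes in the same mouse, with LFD in grey, HFD in orange and ob/ob in blue. For Dusp4, Dusp5, Dusp6 and Etv4 the 3 mice with acinar means of 13.21 to 15.11 lie above the 5 mice with means of 16.48 to 17.27, which is not seen for Spry1 and Etv5.

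Some markers of other cells also moved with the groups. The mean of 10 fibroblast genes was 9.23, 9.22 and 8.87 in LFD, 9.71, 10.35 and 10.44 in HFD, and 10.10 and 10.88 in ob/ob mice, with no overlap between lean and obese mice. Its relation over the 8 mice was closest for Spred1 (Pearson's r = 0.966, exact permutation p = 0.000223, adjusted over all genes 0.0145; Spearman's rho = 0.976, exact permutation p = 0.000397, adjusted 0.0123), and r was 0.920 without the 2 mice farthest from the median. Spred1, like the fibroblast mean, did not overlap between lean and obese mice, so this r and its p also carry the difference between groups. By Pearson's r with the fibroblast mean 4 members passed (Dusp4, Dusp6, Spred1 and Etv4), as did 25.8% of all genes. By Spearman's rho 3 passed (Spry2, Spred1 and Etv4), beside 22.4% of all genes, and no group holds enough mice for a value within it. The mean of 6 genes of dividing cells was 5.76 to 6.32 in LFD, 6.50 to 8.51 in HFD and 7.40 to 8.43 in ob/ob mice. The mean of 9 macrophage genes was 8.95 to 9.30, 9.55 to 10.46 and 10.31 to 10.92 in the same order. The 5 neutrophil genes measured also had a higher mean in every obese mouse, with 5.31 to 6.15, 6.88 to 8.16 and 6.42 to 6.94. The lists of endothelial cells, lymphocytes and adipocytes overlapped between lean and obese mice. The mean of 12 ductal genes was 8.84 to 9.10 in LFD, 9.11 to 9.67 in HFD and 8.22 to 9.07 in ob/ob mice. With the ductal mean no member had an adjusted exact permutation p under 0.05, nor did any gene (0%). Pearson's r with it was 0.24 for Dusp4, 0.41 for Dusp5, 0.18 for Dusp6 and 0.10 for Etv4. Without the 2 mice farthest from its median, HFD replicate 2 and ob/ob replicate 2, these were 0.93, 0.93, 0.89 and 0.92. It was then -0.61 for Spry1 and -0.00028 for Etv5. Those values lean on HFD replicate 3, whose ductal mean was 9.65 beside 8.84 to 9.11 in the others. The part of these cells in the values of the 10 genes was not tested.

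The genes whose values over the 8 mice were most like those of each member were sought among all 15047 genes by Pearson's r. These are given as a description without a test, and the same 3 mice were highest for 8 of the 10 members. Dusp4 was followed most closely by 2810408A11Rik (r = 0.993), Nfkb2 (0.988) and Cd44 (0.988). Dusp5 was followed by Ikbke (0.994), Cda (0.992) and Efnb1 (0.991), and Dusp6 by Stn1 (0.994), Mcm7 (0.992) and Fam3c (0.991). None of the 10 genes was the nearest to another of them, although the 6 pairs among Dusp4, Dusp5, Dusp6 and Etv4 had r from 0.911 to 0.990. Pairs of Spry1 or Etv5 with the other members ranged from -0.09 to 0.57. Spry2 and Phlda1 shared Sema3e, at r = 0.992 and 0.973, beside Pilrb2 (0.990) and Jag1 (0.986) for Spry2 and Tnfrsf23 (0.975) and Prr15 (0.973) for Phlda1. Spry4 was followed by Crim1 (0.984), Sirt7 (0.982) and Nupl1 (0.981), and Spred1 by Spats2 (0.988), Dhrs9 (0.987) and E230029C05Rik (0.980). Etv4 was followed by Elovl5 (0.994), Cavin1 (0.993) and Cast (0.992). Many genes had this pattern, with 1057 above an r of 0.9 for Etv4 and 913 for Dusp4. Few followed the other pair: 42 for Etv5, led by Usp11 (0.979), 1500015A07Rik (0.975) and Tmem18 (0.971), and 10 for Spry1, led by Cyp27a1 (0.952), Rassf8 (0.948) and 2410002F23Rik (0.927).

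Of 95 other genes of the RAS-ERK pathway in 6 lists by role, 91 were measured. For HFD against LFD, 29 of them had an unadjusted limma p under 0.05 (31.9%, with 22 higher and 7 lower), and for ob/ob against LFD 21 did (23.1%, with 13 higher and 8 lower), beside 19.8% and 18.8% of all genes. None passed after adjustment. Their median differences were 0.28 and 0.20, smaller than those of the 10 genes.

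Among 13 growth factor ligands the median difference was 0.54 in HFD and 0.74 in ob/ob mice, with 5 higher and 2 lower at an unadjusted limma p under 0.05 in HFD and 3 higher and 2 lower in ob/ob. Areg, a ligand of the EGF receptor, was 2.46 higher in HFD (SE 0.60, limma adjusted p = 0.179), with every HFD and ob/ob mouse above all LFD mice. Ereg, of the same family, was the highest in ob/ob mice, at 1.79 (SE 0.74, limma adjusted p = 0.253). Fgf21, a hormone abundant in exocrine pancreas, was lowest in both, at -2.27 and -2.48.

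Among 13 receptor tyrosine kinases the medians were -0.14 and -0.08. Erbb2 was 0.97 higher in HFD (SE 0.21, limma adjusted p = 0.175) and Fgfr3 1.03 lower, whereas in ob/ob mice Pdgfrb, the PDGF receptor of mesenchymal cells, was 1.31 higher and the stem cell factor receptor Kit had a difference of -0.92 (SE 0.48). The 16 adaptors, RAS genes and regulators had medians of 0.24 and 0.30. Nras was 0.87 higher in HFD, the GTPase-activating protein Rasa3 1.38 higher in ob/ob mice, and the exchange factor Sos2 lower in both, at -0.49 and -0.66. The 17 genes of the kinase core and its scaffolds had medians of 0.05 and 0.16. In that list the scaffold Ksr1 had differences of 1.23 in HFD and 0.67 in ob/ob, and the ERK substrate Mknk1 of -1.16 and -1.35. With the acinar mean as a covariate the HFD differences were 0.48 for Ksr1 and -0.17 for Mknk1.

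The 2 lists closest in role to the 10 genes had medians between theirs and those of the core. Among 15 other phosphatases and feedback inhibitors the medians were 0.43 and 0.46, with 12 of 15 higher in each model. Dusp9, another ERK phosphatase, was 1.34 higher in HFD (SE 0.40, limma adjusted p = 0.182) and 1.61 higher in ob/ob mice (SE 0.44, limma adjusted p = 0.194), while Dusp3 was 0.43 lower in HFD and Dusp8, which acts mainly on JNK and p38, 0.68 lower in ob/ob mice. Among 17 other ERK-responsive genes the medians were 0.60 and 0.49, with 14 and 13 of 17 higher. Ier3, an early response gene, was 1.69 higher in HFD (SE 0.49, limma adjusted p = 0.181), and the ETS factor Elk3 1.31 higher in ob/ob mice (SE 0.37, limma adjusted p = 0.20). Myc had the lowest difference of that list in both, at -0.31 (SE 0.16) and -0.50 (SE 0.18). With the acinar mean as a covariate the list medians became 0.12 and 0.13 for the feedback inhibitors and 0.12 and -0.05 for the ERK-responsive genes, in HFD and ob/ob respectively.

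**Figure D4:**
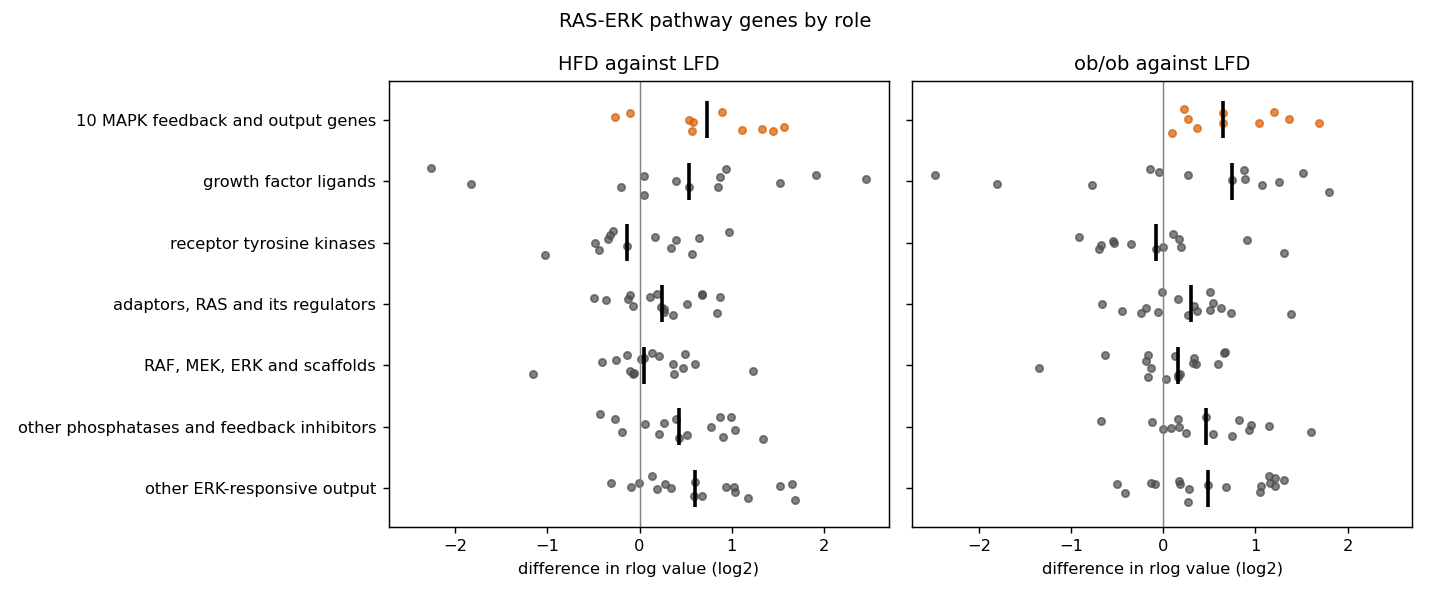
Differences in rlog value (log2) of the 10 genes (orange) and of 91 other pathway genes in 6 lists by role (grey), for HFD against LFD and ob/ob against LFD. Each point is a gene, black bars are list medians, and the vertical line marks 0. The medians of the 10 genes are 0.74 and 0.64, and those of the receptor tyrosine kinases -0.14 and -0.08.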

How the data were processed

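RNA-Seq was made from pancreas of 8 mice, grouped by the labels (3 LFD, 3 HFD, 2 ob/ob); each replicate is a different animal. The authors quantified transcripts of Gencode M18 (GRCm38.p6) with Salmon 0.11.3, summed them per gene with tximport and deposited rlog values from DESeq2 1.22.2, which are on a log2 scale. The filter behind the 15047 genes, and whether rlog used the groups, is not given in the sources used here. Salmon shares reads between similar transcripts. The transformation shrinks differences of genes with few reads. Counts were not used here, and 0 columns were left unmapped.

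limma 3.58.1 in R 4.3.3 was fitted to all genes and 8 mice, with a mean per group and a trended empirical Bayes step, and p-values were adjusted over all genes by Benjamini-Hochberg; this step was tested on simulated data. Exact permutation tests and correlations used Python 3.11.15, NumPy 2.4.6 and SciPy 1.17.1. With 3 mice against 3, and 3 against 2, an exact test cannot go below 0.1 and 0.2. Gene positions come from Gencode M21, another release for the same assembly.

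The members and lists were chosen with earlier results of these data known. The genes named are the 10 members, the gene with the largest difference each way per pathway list, the 3 genes most like each member and the marker lists. The labels name no batch. Alternatives were the variance trend, the groups fitted, a mean rlog minimum of 5, 2 scalings, array weights, a replicate block, the acinar mean as a covariate, other ductal markers and leaving out each mouse. The labels do not say whether equal replicate numbers pair mice of different groups. Deviations of same-numbered mice correlated between -0.28 and 0.59, which with so few mice per group cannot decide it. One item of the organoid donors' genotype is not reported here.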

Additional observations from a re-analysis of the deposited data

Results flagged for a closer look

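Erbb2, the receptor partner of the EGF receptor family, was higher in HFD mice and lay within the LFD range in ob/ob mice. Its rlog value was 6.62, 6.69 and 6.20 in LFD, 7.33, 7.56 and 7.55 in HFD, and 6.48 and 6.37 in ob/ob mice, so that every HFD mouse lay above and every ob/ob mouse below the LFD mean of 6.51. The difference of ob/ob against LFD was -0.08 (SE 0.24). The difference of ob/ob against HFD was -1.05 (SE 0.24), with a limma p of 0.0019 and an adjusted p of 0.883, so the difference between the models did not pass. The mean of the ductal genes was 9.11 to 9.67 in HFD and 8.22 to 9.07 in ob/ob mice, and its part in the Erbb2 values was not tested. None of the 10 feedback and output genes had this form.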

How the results depend on the processing

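Of 626 recomputed member values, 573 kept their direction and side of the threshold, 25 passed it only in the alternative and 28 changed sign. Array weights, with 9.36 for HFD replicate 2 and 0.273 for HFD replicate 1, gave 8 members for HFD against LFD (44.2% of all genes) and 5 for the mean of both models (28.5%), and 55 and 34 pathway genes. Leaving out each mouse gave 0 to 7 members for HFD against LFD, 0 to 5 for the mean of both models and 0 to 0 for the other comparisons; for pathway genes these ranges were 0 to 28, 0 to 31 and 0 to 0. The highest values came without HFD replicate 1, and 3 pathway genes passed for the mean of both models without ob/ob replicate 1. Members with no overlap between obese and LFD mice numbered 1 to 5, with 5 without HFD replicate 1, 3 without LFD replicate 1, and 2 without LFD replicate 2 or ob/ob replicate 1. With all 8 mice 18.4% of all genes had no overlap. Leaving out a mouse makes this easier for every gene, and the share of all genes is not given for those settings. These counts are therefore not a trait of the members. With all 8 mice, 6 members had an adjusted exact p under 0.05 with the acinar mean (27.4% of all genes) and 4 with the fibroblast mean, and 0 for both without the 2 mice farthest from the median. That test has 6 mice and many genes to adjust over, so the lost calls do not show a weaker relation. Depth is unknown, so its limits cannot be given.

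The replicate block gave 0 members after adjustment in each comparison, and 5, 4, 1 and 5 at an unadjusted limma p under 0.05 in the comparisons of HFD with LFD, ob/ob with LFD, ob/ob with HFD and both models with LFD. Without it they were 2, 2, 1 and 4, beside 19.8%, 18.8%, 3.91% and 25.4% of all genes. The share of all genes with the block is not given, so the higher counts cannot be read as particular to these genes. Whether the replicate numbers pair the mice is not known.

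Sign changes were these. None had an adjusted p under 0.05, and the cause was not tested. With the acinar mean as a covariate, Spry4 in HFD became -0.16, and in ob/ob against LFD Dusp5 became -0.0037, Spry1 -0.012, Spry2 -0.10, Spry4 -0.44, Phlda1 -0.62 and Ksr1 -0.15. For the mean of both models Spry4 became -0.30 and Phlda1 -0.14. Array weights gave Etv5 0.065 in HFD, Dusp6 -0.49 and Etv4 -0.41 in ob/ob against HFD, and Spry1 0.032 for the mean. Quantile normalization gave Phlda1 -0.021 in ob/ob against LFD. Leaving out each mouse, Etv5 in HFD ranged from -0.21 to 0.057, and in ob/ob against LFD Spry1 from -0.016 to 0.21 and Phlda1 from -0.13 to 0.59. In ob/ob against HFD the ranges were -0.92 to 0.74 for Dusp4, -1.22 to 0.22 for Dusp5, -0.45 to 0.71 for Dusp6, -0.83 to 0.21 for Spry4, -0.14 to 0.36 for Spred1 and -0.57 to 1.29 for Etv4. For the mean of both models Spry1 ranged from -0.15 to 0.0024.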
